A study of Mus musculus with 11 samples.

Results

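The adhesion molecules Vcam1, Icam1, Cd44, Alcam, F11r, Cdh1, Ncam1 and L1cam were taken by symbol from a table of gene expression in mouse cholangiocytes, the epithelial cells that line bile ducts. All 8 symbols matched 1 entry each among the 43346 genes of the table, and all 8 entered the test. The cells came from livers of wild type C57BL/6 male mice aged 14 to 16 weeks. R15 mice (3 libraries) ate DDC, a compound that injures bile ducts and causes cholestasis, for 10 days and then chow for 15 days. DDC mice (4 libraries) ate the DDC diet for 10 days. Control mice (4 libraries) ate chow. The cells of every group were selected with magnetic beads against EpCAM, over 2 columns, so all values refer to an EpCAM-enriched preparation. The labels do not say whether a library held 1 mouse or a pool. The p-values thus set group differences against the spread between libraries, estimated over the 3 groups together, and not against a known spread between mice.

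Vcam1 and Icam1 are immunoglobulin-superfamily proteins of the cell surface that bind leukocyte integrins; they are best known on inflamed endothelium, and epithelial cells exposed to cytokines that act through NF-kB also make them. Cd44 binds hyaluronan and osteopontin, and Alcam binds itself and the T cell protein Cd6. Cdh1 (E-cadherin) holds the adherens junctions of epithelia together through catenins, and F11r (junctional adhesion molecule A) sits at tight junctions and also binds the leukocyte integrin LFA-1. Ncam1 and L1cam are neural cell adhesion molecules, and Ncam1 is also described on reactive bile ductules.

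Promoter sequences of 5 of the 8 genes (Icam1, Alcam, Cd44, L1cam and F11r) were in the RefSeq table for GRCm38.p6, from 250 bases before to 50 bases after an annotated start. Those of Icam1, F11r and Alcam are shown because the genes differ in how they moved, as described below, and because the title of the study names NF-Y, a factor that binds CCAAT. They are written 5′ to 3′ on the gene's strand, with matches to the motifs searched in capitals. The Icam1 window is chr9:21015690-21015989 on the plus strand, the F11r window is chr1:171437311-171437610 on the plus strand, and the Alcam window is chr16:52453032-52453331 on the minus strand.
Icam1: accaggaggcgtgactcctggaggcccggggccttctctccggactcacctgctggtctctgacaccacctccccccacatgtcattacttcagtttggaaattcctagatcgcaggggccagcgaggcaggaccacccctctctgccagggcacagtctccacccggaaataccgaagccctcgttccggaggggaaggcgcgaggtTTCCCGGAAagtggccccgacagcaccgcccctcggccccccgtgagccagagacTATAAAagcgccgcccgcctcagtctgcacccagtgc
F11r: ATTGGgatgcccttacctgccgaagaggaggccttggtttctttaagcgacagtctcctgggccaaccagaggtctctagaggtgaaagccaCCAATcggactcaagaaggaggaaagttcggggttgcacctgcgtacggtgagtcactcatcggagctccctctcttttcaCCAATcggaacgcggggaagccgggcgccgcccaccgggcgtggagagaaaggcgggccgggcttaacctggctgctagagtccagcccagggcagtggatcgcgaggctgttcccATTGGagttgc
Alcam: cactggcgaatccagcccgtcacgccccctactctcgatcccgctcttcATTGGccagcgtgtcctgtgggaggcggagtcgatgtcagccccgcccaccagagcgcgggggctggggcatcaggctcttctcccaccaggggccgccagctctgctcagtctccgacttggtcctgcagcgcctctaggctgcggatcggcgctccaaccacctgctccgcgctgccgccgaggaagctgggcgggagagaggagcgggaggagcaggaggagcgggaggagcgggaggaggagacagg
Positions are counted from the RefSeq start, with the first transcribed base as 1. The searches covered both strands for an NF-kB consensus, which 4.5% of 32817 promoter windows held, for TTCNNNGAA, the letters that STAT factors bind (8.29%), for CCAAT (37.4%) and for TATAAA (13.6%). The Icam1 window held TTCNNNGAA at -42 and TATAAA at 14, with no overlap between them. It held no match to the NF-kB consensus searched, GGGRNWYYCC (R is A or G, W is A or T, Y is C or T, N is any base). The letters tggaaattcc in this window differ from that consensus in the first base only, and near matches were not searched for. In the F11r window CCAAT stood 4 times, at -250, -158, -77 and 40, the first and last on the opposite strand, and 1.06% of windows held at least 4, a number chosen after the F11r count was seen. Alcam had 1 CCAAT, on the opposite strand at -201, and 1 of the 2 L1cam windows had 1. The Cd44 window held none of the letters searched. A match describes the letters and shows no binding, and the lack of one says nothing of the factor.

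Expression was deposited as FPKM, fragments scaled to transcript length and library size, so levels of different genes can be set side by side per length. In R15 libraries the order of mean FPKM was Cdh1, F11r, Alcam, Vcam1, Icam1, Cd44, Ncam1 and L1cam, and the libraries of Icam1 and Cd44 and of Ncam1 and L1cam overlapped. In DDC libraries it was Cdh1, Vcam1, F11r, Cd44, Icam1, Alcam, L1cam and Ncam1, where Vcam1 overlapped both Cdh1 and F11r, and Cd44 overlapped Icam1. In Control libraries the first 6 genes stood as in R15, followed by L1cam and Ncam1, and Icam1 overlapped both Vcam1 and Cd44. Vcam1 was thus the fourth of the 8 in R15 cells, the second in DDC cells and the fourth in Control cells. Ncam1 and L1cam lay below the other members in every library, at 0.421 to 2.53 and 0.911 to 1.91 FPKM, and the other members' lowest value was 4.54 FPKM, for Cd44 in Control replicate 2.

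**Figure D1:**
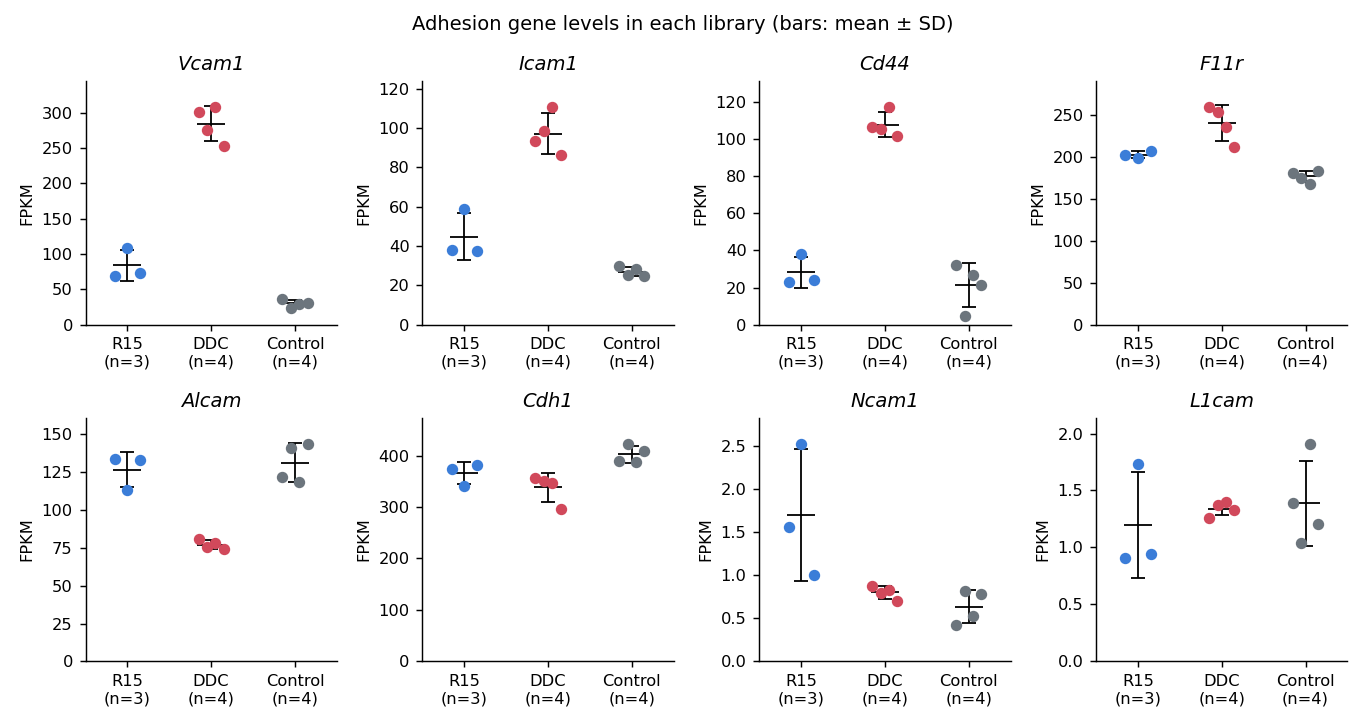
Levels of the 8 adhesion genes in FPKM (vertical axes, each from 0, with its own range) in R15, DDC and Control libraries; each point is 1 library and the bars give mean ± SD. For Vcam1, Icam1 and Cd44 the 4 DDC libraries sit above all others, for Alcam they sit below all others, and 1 Control library is at 4.54 FPKM for Cd44.

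Of the 8 members, 4 were higher and 2 lower in DDC than in Control cells at an adjusted p under 0.05 (limma on log2(FPKM + 1), Benjamini-Hochberg over 15264 genes), where 65.4% of all tested genes passed, 33.5% higher and 31.9% lower. Between R15 and DDC cells 2 members were higher and 4 lower, with 62.2% of tested genes passing, 33.4% higher and 28.8% lower. Between R15 and Control cells 3 members were higher and none lower, with 9.58% of tested genes passing, 6.87% higher and 2.72% lower. Ncam1 entered the test through its R15 libraries alone, so its place among the 2 and the 3 members higher in R15 was a condition of testing it, and 1 and 2 of the other 7 were higher. The median log2 difference over the 7 members other than Ncam1 was 0.44 for DDC against Control, -0.24 for R15 against DDC and 0.20 for R15 against Control, beside 0.00, 0.04 and 0.05 over all tested genes. The libraries of the 2 groups did not overlap for 6, 5 and 4 of these 7, as for 61.3%, 66.6% and 21.3% of tested genes. The comparisons share libraries, so a high DDC level enters the first 2 with opposite sign. Other scalings changed the split of all calls: rescaling to one total gave 4147 higher and 5542 lower, against 5112 and 4869, for DDC against Control, and 6194 higher and 3290 lower, against 5099 and 4397, for R15 against DDC. For R15 against Control the split of 1048 higher and 415 lower became 618 and 804 with median-of-ratios scaling, 699 and 815 with voom on whole reads, and 594 and 468 with quantile normalization.

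**Figure D2:**
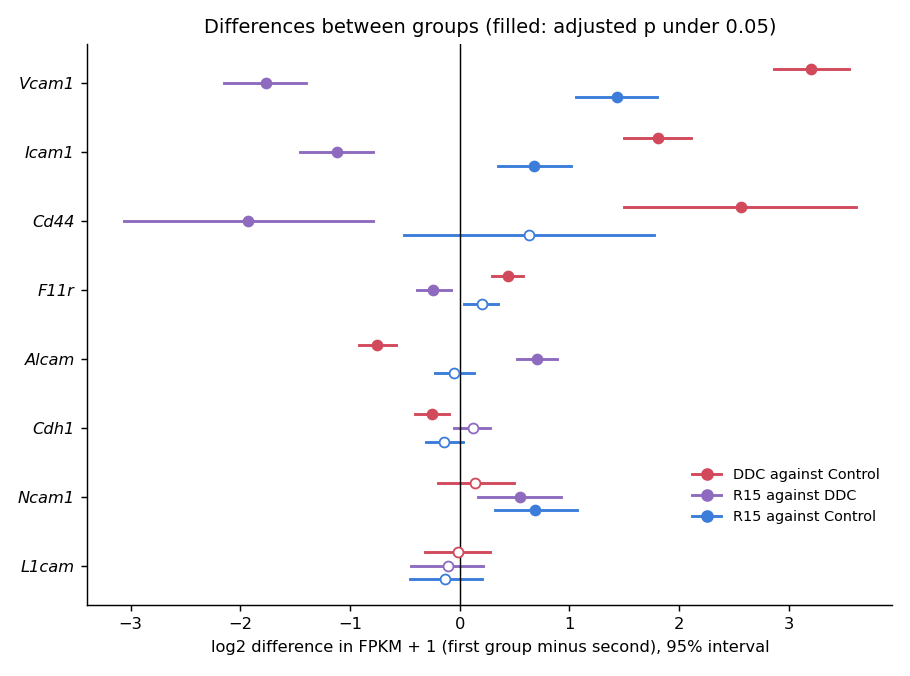
Differences between groups for the 8 adhesion genes on the log2(FPKM + 1) scale (horizontal axis, the group named first minus the other) with 95% intervals; filled points had an adjusted p under 0.05. Vcam1, Icam1, Cd44 and F11r lie to the right for DDC against Control and to the left for R15 against DDC, Alcam lies the other way round, and L1cam crosses 0 in all 3 comparisons.

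Vcam1 was the member with the largest DDC difference. Its level was 69.0, 109 and 73.6 FPKM in R15 libraries, 301, 275, 308 and 253 FPKM in DDC libraries, and 36.2, 24.0, 29.6 and 30.8 FPKM in Control libraries. No 2 groups overlapped, and R15 lay between DDC and Control. The means were 83.9 ± 22.0 FPKM in R15 (SD, n = 3), 284 ± 25.1 in DDC and 30.2 ± 5.01 in Control (SD, n = 4 each), a ratio of means of 9.42 for DDC over Control. In the limma fit Vcam1 rose in DDC against Control by 3.20 ± 0.15 on the log2 scale (standard error; 95% interval 2.86 to 3.55, adjusted p = 2.2e-07). It was lower in R15 than in DDC, at -1.77 ± 0.17 (-2.15 to -1.40, adjusted p = 1.7e-05), and was above Control at 1.43 ± 0.17 (1.06 to 1.80, adjusted p = 0.0012). Vcam1 (ENSMUSG00000027962) spans chr3:116110020-116129688 in the table's mm10 coordinates, and 4713 to 74617 reads stood behind a library's value. In bulk RNA, fewer cells of a type and less RNA per cell cannot be told apart, here and in every result that follows.

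Icam1 moved the same way with a smaller range. It had 38.1, 58.9 and 37.6 FPKM in R15 libraries, 93.2, 98.6, 111 and 86.3 FPKM in DDC libraries, and 29.7, 25.1, 28.4 and 25.0 FPKM in Control libraries. Again no 2 groups overlapped, and R15 replicate 2 stood above the other R15 libraries. The means were 44.9 ± 12.1 FPKM in R15 (SD, n = 3), 97.2 ± 10.3 in DDC and 27.0 ± 2.35 in Control (SD, n = 4 each). Icam1 rose in DDC against Control by 1.81 ± 0.14 (1.50 to 2.11, limma adjusted p = 2.5e-06) and fell in R15 against DDC, at -1.12 ± 0.15 (-1.46 to -0.79, adjusted p = 0.00013). Its R15 level was above Control by 0.68 ± 0.15 (0.35 to 1.01, adjusted p = 0.022), a call lost when the fit held only those 2 groups (adjusted p = 0.093). The call was also lost without 5 libraries that held pancreatic transcripts, where the difference was 0.89 with 1 Control library left. Icam1 (ENSMUSG00000037405, chr9:21015960-21028797) shares 511 exon bases with an antisense gene, Gm47079, that is not in the table, and Vcam1 shares 61 with Gm43109, also not in the table. The libraries were stranded, but no source at hand states the strand setting of the counting, so reads of such partners cannot be told apart. Within each library the ratio of Vcam1 to Icam1 FPKM was 1.81, 1.85 and 1.96 in R15, 3.23, 2.79, 2.78 and 2.93 in DDC, and 1.22, 0.957, 1.04 and 1.23 in Control. The 3 groups did not overlap in this ratio either.

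The receptors of these 2 proteins are integrins of leukocytes and other cells, and 7 of 8 rose and 1 fell in DDC against Control, beside the 33.5% and 31.9% of all genes. The same shares stand beside each count for DDC against Control below. Counts for R15 against DDC stand beside 33.4% higher and 28.8% lower, and those for R15 against Control beside 6.87% and 2.72%. The median of the 8 was 1.63. Itgb2, the beta chain that Icam1-binding integrins share, had 5.06, 21.7 and 8.62 FPKM in R15, 33.6, 40.8, 38.9 and 48.1 FPKM in DDC, and 9.45, 5.92, 5.74 and 3.64 FPKM in Control. It was higher in DDC than in Control by 2.57 ± 0.37 (limma adjusted p = 0.00015). Its alpha chains moved with it: Itgax by 2.65 ± 0.31, Itgam by 2.19 ± 0.32 and Itgal, the alpha chain of LFA-1, by 1.86 ± 0.29. Itga4, the main alpha chain that binds Vcam1, was at 4.32 ± 0.63 FPKM in DDC and 1.07 ± 0.21 in Control (SD, n = 4 each) and differed by 1.36 ± 0.21. Its partner Itgb1, at over 100 FPKM in all libraries, differed by 0.15 ± 0.06 (adjusted p = 0.048), a call lost under each of 3 other scalings. The member that fell was Itga9, which pairs with Itgb1 and also binds Vcam1: 27.8, 23.1 and 29.3 FPKM in R15, 9.15, 9.68, 7.25 and 8.71 FPKM in DDC, and 24.5, 34.3, 27.6 and 31.3 FPKM in Control. Between R15 and DDC 7 of the 8 were lower (4 without those 5 libraries with pancreatic transcripts) and Itga9 was higher, by 1.52 ± 0.13, where 28.8% of tested genes were lower and 33.4% higher. None of the 8 passed between R15 and Control in limma at an adjusted p under 0.05, while Itgal and Itgax had an unadjusted p under 0.05, a fit without R15 replicate 1 called 1, and voom called none.

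Markers of other cells moved with these results. Of 12 macrophage and Kupffer cell markers 9 rose in DDC and none fell. Their summed level was 143 to 741 FPKM in R15, 1362 to 2445 FPKM in DDC and 129 to 153 FPKM in Control. Dendritic cell markers rose in 6 of 7 cases. Of 8 neutrophil markers 3 were tested and all 3 rose, while Ly6g, Mpo and Elane, which define neutrophils and their precursors, were under 0.1 FPKM in every library. The 8 summed to 2.66 to 9.98 FPKM in R15, 41.7 to 70.2 in DDC and 1.36 to 3.95 in Control. Entry of the 3 into the test may thus have rested on their DDC libraries. Without a filter 5 of the 8 rose and none fell. R15 replicate 2, the highest R15 library for Vcam1, Icam1, Cd44, Ncam1 and L1cam and the lowest for Alcam, F11r and Cdh1, also had the highest macrophage sum of the R15 libraries, at 741 FPKM against 143 and 173. Its sums were the highest of the R15 libraries for endothelial markers too (245 FPKM against 69.3 and 190.2), for dendritic cell markers (66.8 against 24.9 and 32.9), for B and plasma cell markers (208 against 71.4 and 93.9), for neutrophil markers (9.98 against 3.65 and 2.66) and for stellate cell and fibroblast markers (223 against 171 and 163). The last of these sums was raised by Rgs5, as given below, and most markers of that list were too low to test. R15 replicate 3 had the highest R15 sums for T and NK cell markers (18.2 FPKM against 9.63 in R15 replicate 2) and for hepatocyte markers (2437 against 1779). Without R15 replicate 2 the R15 difference from Control was 1.23 for Vcam1 and 0.47 for Icam1, both still past the threshold. Otherwise the part of these markers in the members' levels was not tested.

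Endothelial cells also carry Vcam1 and Icam1. Which cells the transcripts of these genes came from was not tested. All 12 endothelial markers were lower in DDC than in Control, with a median log2 difference of -2.11, and 7 passed without the 5 libraries that held pancreatic transcripts. Their summed level was 69.3 to 245 FPKM in R15, 16.8 to 50.7 FPKM in DDC and 104 to 458 FPKM in Control. Pecam1 averaged 2.71 ± 0.89 FPKM in DDC and 9.84 ± 5.58 FPKM in Control (SD, n = 4 each), and the ratio of Vcam1 to Pecam1 was 74.8 to 194 in DDC and 1.74 to 7.80 in Control libraries. Between R15 and DDC 11 of the 12 were higher, where 33.4% of tested genes were. The count was 4 without R15 replicate 2, 5 without R15 replicate 3 and 5 without DDC replicate 2. Among 15 other adhesion molecules of endothelium and leukocytes 9 were tested, of which 3 rose and 4 fell in DDC against Control, with a median of -0.40. Under each of 3 other scalings 5 fell, and without the 5 libraries with pancreatic transcripts 2 fell. The list was not divided by the cells that carry each gene. The 4 that fell were Pecam1 (-1.44 ± 0.43) and, named here after their values were seen, Esam (-1.77 ± 0.42), Icam2 (-1.37 ± 0.40) and Jam2 (-1.25 ± 0.45) (limma adjusted p = 0.013, 0.0036, 0.012 and 0.033). Those that rose were Selplg, the selectin ligand of leukocytes (2.27 ± 0.25), Cd34 (1.27 ± 0.16) and Madcam1, an addressin that binds the integrin of Itga4 and Itgb7. Madcam1 had 2.11, 3.26 and 1.11 FPKM in R15 and 3.90, 4.75, 6.29 and 3.33 FPKM in DDC, and was listed at 0 in all 4 Control libraries.

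**Figure D3:**
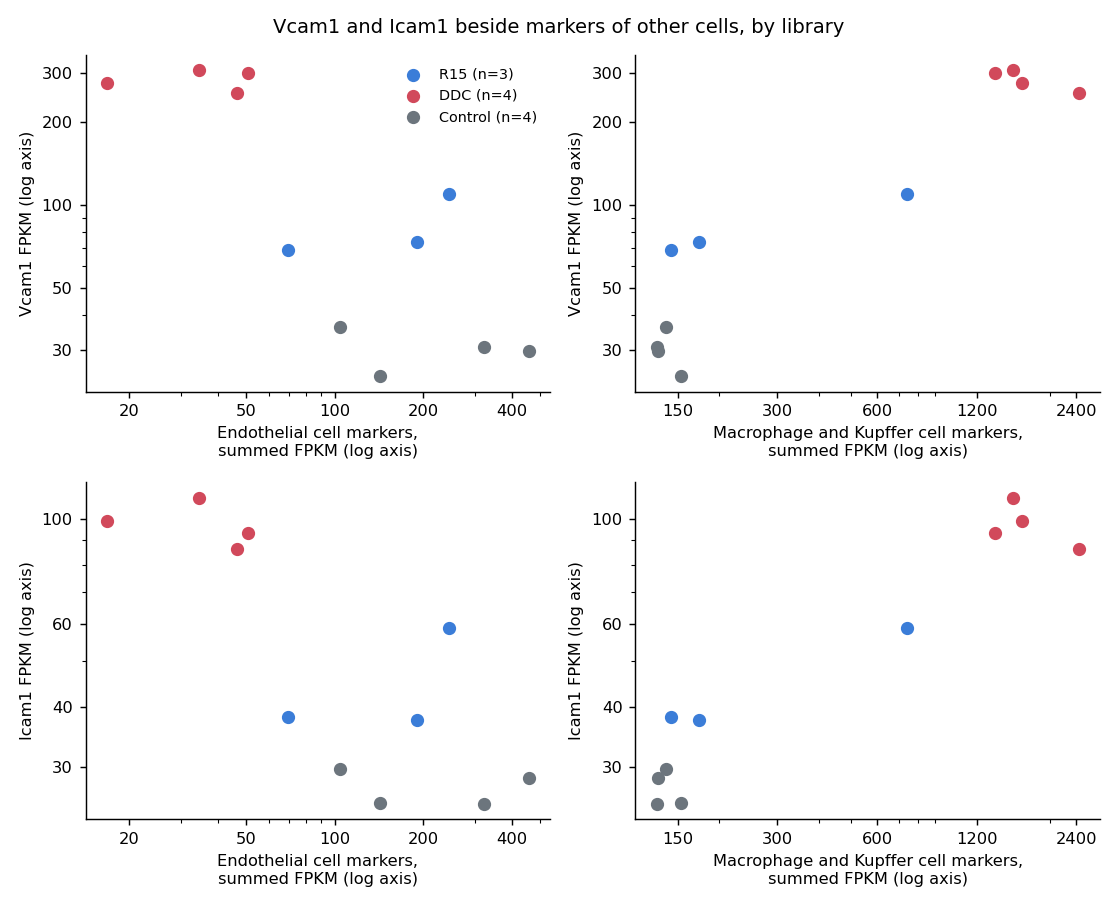
Vcam1 (upper row) and Icam1 (lower row) FPKM in each library (vertical log axes) against the summed FPKM of 12 endothelial markers (left) and of 12 macrophage and Kupffer cell markers (right, horizontal log axes), coloured by R15, DDC and Control. DDC libraries have the highest Vcam1 and Icam1, the lowest endothelial sums (16.8 to 50.7 FPKM) and the highest macrophage sums (1362 to 2445 FPKM).

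NF-kB is a known activator of both Vcam1 and Icam1, and of 22 genes of that pathway 19 rose and 1 fell in DDC against Control, with a median of 0.90, beside the 33.5% higher and 31.9% lower of all tested genes. Relb, the subunit of the noncanonical arm, had 18.6, 21.8 and 19.1 FPKM in R15, 36.0, 37.1, 37.4 and 30.2 FPKM in DDC, and 11.1, 12.3, 11.1 and 11.9 FPKM in Control. Like Vcam1 and Icam1 it was highest in DDC and lowest in Control with no overlap. It differed by 1.52 ± 0.08 between DDC and Control, by -0.79 ± 0.08 between R15 and DDC and by 0.72 ± 0.08 between R15 and Control (limma adjusted p = 2.5e-07, 2.8e-05 and 0.00098). Birc3, an inhibitor of apoptosis induced by the pathway, differed by 1.25 ± 0.08 and Map3k14, the kinase that starts the noncanonical arm, by 0.76 ± 0.06 in DDC against Control. The inhibitors Tnfaip3 (1.38 ± 0.13) and Nfkbia (1.27 ± 0.19) also rose. Whether NF-kB acted on Vcam1 or Icam1 in these cells was not tested, nor was which cells the pathway's transcripts came from. In R15 against DDC 16 of the 22 were lower and 1 higher, where 28.8% of tested genes were lower and 33.4% higher. In R15 against Control 8 were higher, among them Relb, Birc3 and Nfkb2 (0.57 ± 0.09), and none lower, beside 6.87% and 2.72% of tested genes. The 8 became 6 with median-of-ratios scaling or quantile normalization, 7 on rescaling to one total, and 6 to 7 with single libraries left out. None of the 22 passed without the 5 libraries with pancreatic transcripts, which leaves 1 Control library.

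Cd44 rose in DDC cells, with 1 Control library far below the others. It had 22.8, 37.9 and 24.1 FPKM in R15 libraries, 107, 105, 117 and 102 FPKM in DDC libraries, and 32.0, 4.54, 26.7 and 21.6 FPKM in Control libraries. The DDC libraries lay above all others, and R15 and Control overlapped. The means were 28.3 ± 8.37 FPKM in R15 (SD, n = 3), 108 ± 6.68 in DDC and 21.2 ± 11.9 in Control (SD, n = 4 each). The difference was 2.56 ± 0.47 for DDC against Control (1.50 to 3.61, limma adjusted p = 0.00083) and 1.98 without Control replicate 2. Cd44 was lower in R15 than in DDC, at -1.93 ± 0.51 (-3.06 to -0.79, adjusted p = 0.0078). Between R15 and Control the difference was 0.63 ± 0.51 (-0.51 to 1.77, adjusted p = 0.43), and 0.06 without Control replicate 2. Cd44 (ENSMUSG00000005087, chr2:102811141-102901665) has 9 transcripts in GENCODE M21, 8 of them protein-coding, and the values do not separate its splice forms. Leukocytes carry it too: the ratio of Cd44 to Ptprc, the pan-leukocyte gene, was 6.30 to 13.9 in R15, 13.7 to 16.8 in DDC and 2.68 to 18.6 in Control libraries.

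Among 12 genes of Cd44 ligands, hyaluronan enzymes, membrane linkers and splicing factors 9 were tested, of which 3 rose and 3 fell in DDC against Control, with a median of -0.08 and with 5 that fell on rescaling to one total. Spp1, which encodes the ligand osteopontin, was abundant throughout, at 7972 ± 555 FPKM in R15 (SD, n = 3), 8569 ± 410 in DDC and 7570.2 ± 1491 in Control (SD, n = 4 each), and differed by 0.20 ± 0.20 between DDC and Control (adjusted p = 0.41). Has2, a hyaluronan synthase, was at or near 0 in all libraries. Hyal1, a lysosomal hyaluronidase, was lower in DDC (-0.77 ± 0.06), and Hmmr, a hyaluronan receptor that is also a spindle protein, was higher by 1.76 ± 0.14. Of the linkers to actin, Msn was higher by 2.15 ± 0.23, Rdx was lower (-0.62 ± 0.06), and Ezr differed by -0.08 ± 0.05. The splicing regulators Esrp1 and Esrp2, which act on the variable exons of Cd44, moved in opposite directions in DDC: Esrp1 by 0.43 ± 0.06 and Esrp2 by -0.47 ± 0.05 (limma adjusted p = 9.5e-05 and 4.1e-05). In R15 against DDC 3 of the 9 were higher and 4 lower, and Esrp1 and Esrp2 again differed in opposite directions, at -0.53 ± 0.06 and 0.30 ± 0.06. Against Control, R15 cells differed in 1 of the 9, Ezr at -0.22 ± 0.05 (adjusted p = 0.026), a call lost with 2 of 3 other scalings.

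Alcam fell in DDC cells, and its R15 level overlapped the Control level. It had 133, 113 and 133 FPKM in R15 libraries, 80.7, 75.8, 78.1 and 74.2 FPKM in DDC libraries, and 122, 141, 119 and 144 FPKM in Control libraries. The 4 DDC libraries lay below all 7 others. R15 and Control overlapped, with R15 replicate 2 below the lowest Control library. The means were 127 ± 11.5 FPKM in R15 (SD, n = 3), 77.2 ± 2.81 in DDC and 131 ± 12.9 in Control (SD, n = 4 each). The difference was -0.75 ± 0.08 for DDC against Control (-0.92 to -0.58, limma adjusted p = 1.6e-05) and 0.70 ± 0.08 for R15 against DDC (0.52 to 0.89, adjusted p = 6.3e-05). For R15 against Control it was -0.05 ± 0.08 (-0.23 to 0.13, adjusted p = 0.71), and 0.03 without R15 replicate 2. Alcam (ENSMUSG00000022636, chr16:52248996-52454074) overlaps no other gene in GENCODE M21. Cd6, the T cell receptor of Alcam, did not enter the test and averaged 0.886 ± 0.763 FPKM in R15 (SD, n = 3), 0.252 ± 0.04 in DDC and 0.340 ± 0.124 in Control (SD, n = 4 each).

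F11r was higher in DDC than in Control cells by a small amount. Its level was 202, 199 and 207 FPKM in R15 libraries, 260, 253, 236 and 212 FPKM in DDC libraries, and 181, 175, 168 and 183 FPKM in Control libraries. No 2 groups overlapped. The means were 203 ± 4.45 FPKM in R15 (SD, n = 3), 240 ± 21.4 in DDC and 177 ± 6.84 in Control (SD, n = 4 each). F11r rose in DDC against Control by 0.44 ± 0.06 (0.29 to 0.58, limma adjusted p = 0.00018), a call lost without the 5 libraries with pancreatic transcripts (0.34, with 1 Control library left). It fell in R15 against DDC, at -0.24 ± 0.07 (-0.39 to -0.08, adjusted p = 0.012). The call between R15 and DDC was lost on rescaling to one total (-0.12), under quantile normalization (-0.03) and without those 5 libraries (-0.22). R15 against Control gave 0.20 ± 0.07 (0.04 to 0.35, adjusted p = 0.099), which did not pass although the libraries did not overlap, as was so for 21.3% of tested genes. F11r (ENSMUSG00000038235) lies at chr1:171437535-171464603.

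The scaffold and polarity genes around F11r were mostly lower in DDC cells. Of 9 such genes 8 were in the table under the symbols used, none rose and 6 fell in DDC against Control, with a median of -0.28, where 33.5% of tested genes rose and 31.9% fell. Magi1, a junctional scaffold, was at 52.7 ± 4.75 FPKM in R15 (SD, n = 3), 28.6 ± 0.51 in DDC and 51.8 ± 5.78 in Control (SD, n = 4 each), and differed by -0.83 ± 0.08 between DDC and Control (limma adjusted p = 1e-05). The scaffold Tjp1 (-0.21 ± 0.05) and the polarity genes Pard3 (-0.33 ± 0.07) and Pard6b (-0.32 ± 0.06) were also lower. In R15 against DDC 7 of the 8 were higher and none lower, where 33.4% of tested genes were higher and 28.8% lower. Among the 7 were Magi1 by 0.86 ± 0.09, Pard6b by 0.51 ± 0.06 and Pard3 by 0.52 ± 0.08. With median-of-ratios scaling 6 were higher and 1 lower. In R15 against Control Rapgef2, an exchange factor for Rap GTPases, was higher by 0.40 ± 0.05 (adjusted p = 0.0017) and no other gene of the 8 passed.

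Cdh1 was the most abundant member in each group's mean and was slightly lower in DDC than in Control cells. It had 375, 342 and 381 FPKM in R15 libraries, 357, 350, 348 and 297 FPKM in DDC libraries, and 389, 423, 388 and 409 FPKM in Control libraries. All Control libraries lay above all others, while R15 and DDC overlapped. The means were 366 ± 21.3 FPKM in R15 (SD, n = 3), 338 ± 27.6 in DDC and 402 ± 16.8 in Control (SD, n = 4 each). The difference was -0.25 ± 0.07 for DDC against Control (-0.41 to -0.10, limma adjusted p = 0.009), a call lost without the 5 libraries with pancreatic transcripts (-0.30, with 1 Control library left). It was 0.12 ± 0.08 for R15 against DDC (-0.05 to 0.28, adjusted p = 0.21) and -0.14 ± 0.08 for R15 against Control (-0.31 to 0.03, adjusted p = 0.26). Quantile normalization gave 0.40 for R15 against DDC, which passed, and 0.01 for R15 against Control. Within a library the ratio of F11r to Cdh1 was 0.540 to 0.582 in R15, 0.679 to 0.727 in DDC and 0.415 to 0.464 in Control, with no overlap. Cdh1 (ENSMUSG00000000303) lies at chr8:106603351-106670246.

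Of 14 adherens junction partners of Cdh1, all tested, 7 rose and 6 fell in DDC against Control (33.5% and 31.9% of tested genes), with a median of 0.12, and 4 to 7 rose when single libraries were left out, with 4 without Control replicate 3 or any of DDC replicates 1, 2 and 3. The catenins that bind the Cdh1 tail differed little: Ctnnb1 by 0.13 ± 0.04, Ctnna1 by 0.11 ± 0.04 and Ctnnd1 by 0.18 ± 0.07 (limma adjusted p = 0.024, 0.037 and 0.047). These 3 calls were lost under each of 3 other scalings, and under quantile normalization Ctnnb1 changed sign (-0.02). Vcl, which links catenins to actin under tension, was higher by 0.57 ± 0.07, Nectin2 by 0.46 ± 0.06, Nectin1 by 0.49 ± 0.09, and Epcam, the protein used to select the cells, by 0.48 ± 0.08. Nectin3 (-0.65 ± 0.12), Plekha7 (-0.63 ± 0.08), which ties junctions to microtubules, and Ceacam1 (-1.02 ± 0.23) were lower. In R15 against DDC 4 of the 14 were higher and 6 lower, while rescaling to one total gave 6 and 2, quantile normalization gave 4 and 1, and leaving out the 5 libraries with pancreatic transcripts gave 4 and 3. In R15 against Control Nectin1 (0.63 ± 0.09) and Vcl (0.38 ± 0.07) were higher and no gene was lower.

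Among 12 other cadherins 9 were tested, and 4 rose and 4 fell in DDC against Control, with a median of -0.47. Cdh2 (N-cadherin) had its highest level in R15 cells: 7.43, 5.26 and 6.49 FPKM in R15, 3.89, 3.49, 2.15 and 2.73 FPKM in DDC, and 1.56, 2.28, 1.56 and 1.48 FPKM in Control. The R15 libraries lay above all others, and DDC and Control overlapped. The differences were 0.57 ± 0.15 for DDC against Control, 0.87 ± 0.17 for R15 against DDC and 1.44 ± 0.17 for R15 against Control (limma adjusted p = 0.0077, 0.0011 and 0.0011). Cdh6 was at 58.0 ± 6.88 FPKM in R15 (SD, n = 3), 57.6 ± 4.48 in DDC and 36.9 ± 4.09 in Control (SD, n = 4 each), and was above Control in DDC by 0.63 ± 0.09 and in R15 by 0.64 ± 0.10. Cdh3 (P-cadherin) was lower in DDC than in Control (-0.67 ± 0.09) and higher in R15 than in DDC (0.60 ± 0.09). Cdh17, the intestinal cadherin, named here after its values were seen, had 0.163 to 0.622 FPKM in R15, 9.52 to 11.1 FPKM in DDC and 0.0232 to 0.153 FPKM in 3 Control libraries, with 8.95 FPKM in Control replicate 3. Of 9 regulators of Cdh1 transcription 6 were tested, with 1 higher and 1 lower in DDC against Control: the repressor Zeb2, also a gene of macrophages, by 1.37 ± 0.19 (3.01 ± 0.67 FPKM in DDC and 0.540 ± 0.169 in Control, SD, n = 4 each), and the epithelial activator Grhl2 by -0.51 ± 0.06.

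**Figure D4:**
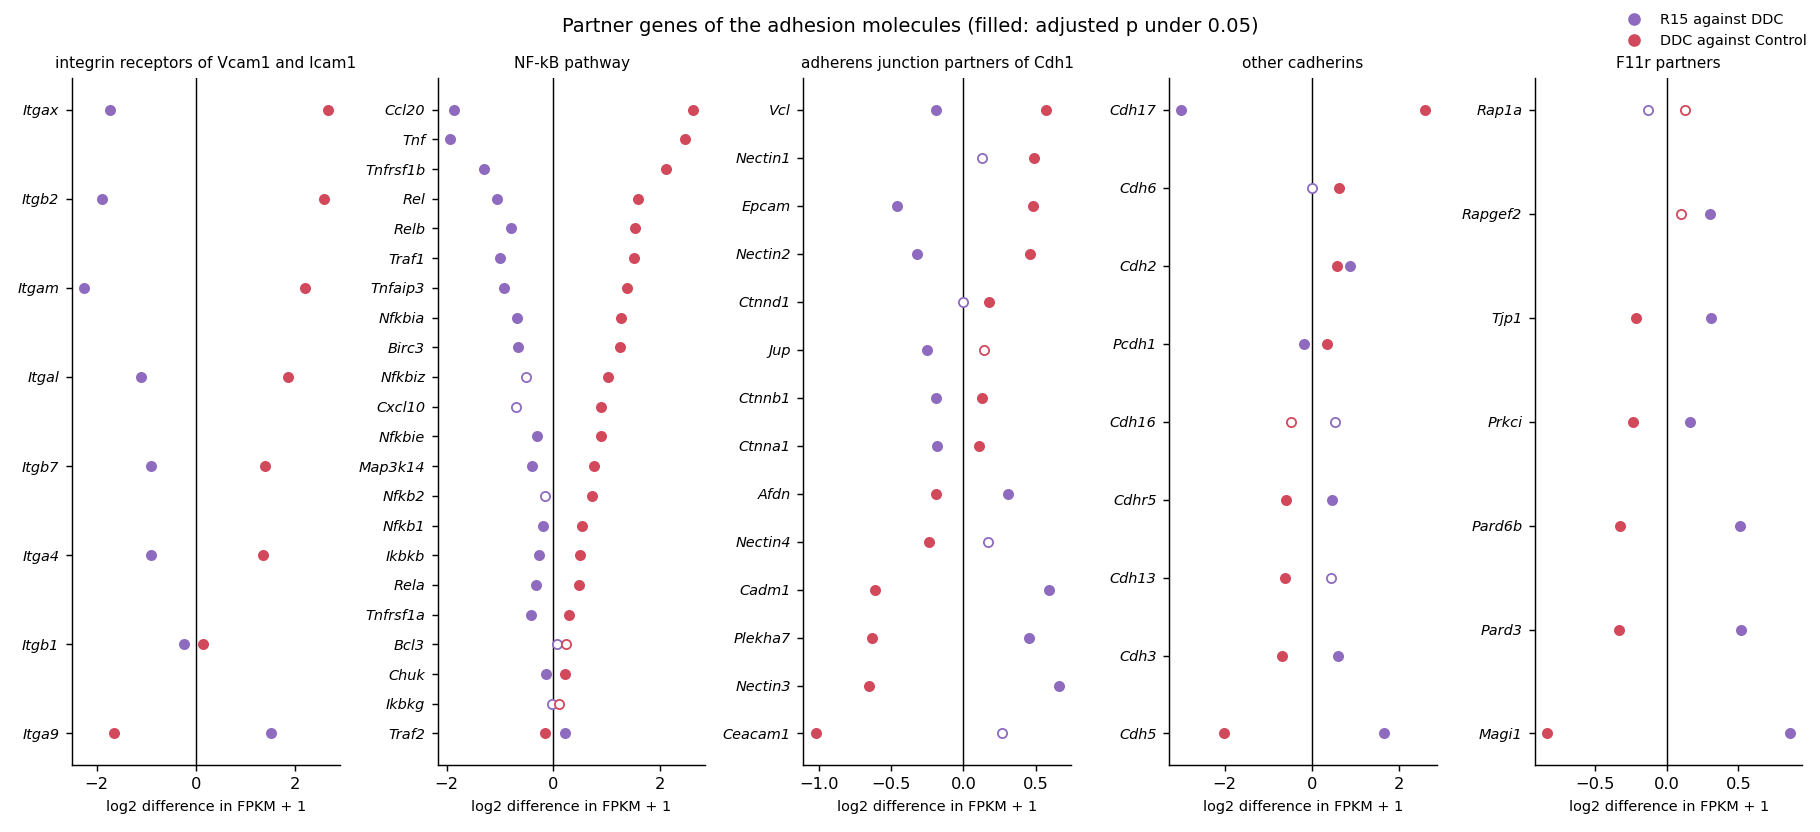
Differences on the log2(FPKM + 1) scale (horizontal axes) for tested partner genes of the adhesion molecules, 1 gene a row, with R15 against DDC and DDC against Control in separate colours and filled points for an adjusted p under 0.05. Most integrins and NF-kB genes lie right of 0 for DDC against Control and left of 0 for R15 against DDC, 6 of the 7 F11r partners drawn lie right of 0 with filled points for R15 against DDC, and Cdh2 lies right of 0 in both.

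Several members are cut from the cell surface by proteases, and of 8 such sheddases 5 rose and 1 fell in DDC against Control (33.5% and 31.9% of tested genes), with a median of 0.40. Adam8, a protease of leukocytes among other cells, was at 3.90 ± 1.99 FPKM in R15 (SD, n = 3), 22.3 ± 3.28 in DDC and 2.33 ± 0.80 in Control (SD, n = 4 each), and differed by 2.82 ± 0.23 between DDC and Control (limma adjusted p = 3.4e-06). Adam10 and Adam17, which cleave Cdh1, Cd44, L1cam and Vcam1 between them, were higher by 0.39 ± 0.06 and 0.42 ± 0.07, Mmp14 by 0.61 ± 0.07 and Mmp9 by 0.94 ± 0.12. Bace1, a protease best known in neurons, was lower (-0.75 ± 0.05). In R15 against DDC 5 of the 8 were lower and Bace1 was higher, and none of the 8 passed between R15 and Control in limma, where Mmp14 had an unadjusted p under 0.05, a fit without Control replicate 2 called 1, and voom called none.

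Ncam1 was at low levels and highest in R15 cells. Its level was 1.57, 2.53 and 1.01 FPKM in R15 libraries, 0.880, 0.792, 0.831 and 0.704 FPKM in DDC libraries, and 0.421, 0.823, 0.526 and 0.784 FPKM in Control libraries. The R15 libraries lay above all others, and DDC and Control overlapped. The means were 1.70 ± 0.769 FPKM in R15 (SD, n = 3), 0.802 ± 0.0743 in DDC and 0.639 ± 0.196 in Control (SD, n = 4 each). Ncam1 met the filter of 1 FPKM in 3 libraries through its R15 libraries alone, so a higher R15 value was a condition of its being tested. The difference was 0.55 ± 0.17 for R15 against DDC (0.17 to 0.92, limma adjusted p = 0.017) and 0.69 ± 0.17 for R15 against Control (0.32 to 1.07, adjusted p = 0.033). Without a filter the adjusted p was 0.03 and 0.054, and R15 against Control did not pass without Control replicate 1 (0.63), Control replicate 3 (0.66) or any of DDC replicates 1, 2 and 3 (0.69 each). DDC against Control gave 0.14 ± 0.16 (-0.20 to 0.49, adjusted p = 0.44). With 237 to 1292 reads per library, Ncam1 (ENSMUSG00000039542, chr9:49502136-49798925) rested on fewer reads than the abundant members, and its 7 annotated transcripts are not separated. It shares 417 exon bases with the antisense gene Gm11149, which had at most 0.0231 FPKM. St8sia4, an enzyme that adds polysialic acid to Ncam1, was not tested, at 0.329 ± 0.144 FPKM in R15 (SD, n = 3), 0.864 ± 0.190 in DDC and 0.186 ± 0.0224 in Control (SD, n = 4 each).

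L1cam differed by less than its spread in all comparisons. It had 0.911, 1.73 and 0.946 FPKM in R15 libraries, 1.26, 1.37, 1.40 and 1.33 FPKM in DDC libraries, and 1.39, 1.04, 1.91 and 1.21 FPKM in Control libraries. All 3 groups overlapped, and the DDC libraries had the narrowest range. The means were 1.20 ± 0.463 FPKM in R15 (SD, n = 3), 1.34 ± 0.0589 in DDC and 1.39 ± 0.376 in Control (SD, n = 4 each). The difference was -0.02 ± 0.13 for DDC against Control (-0.32 to 0.28, limma adjusted p = 0.92), -0.11 ± 0.15 for R15 against DDC (-0.44 to 0.21, adjusted p = 0.53) and -0.13 ± 0.15 for R15 against Control (-0.45 to 0.20, adjusted p = 0.59). Without Control replicate 3 the DDC difference from Control was 0.08 and without DDC replicate 1 it was 0.00. L1cam (ENSMUSG00000031391, chrX:73853778-73896105) shares 100 exon bases on the same strand with Arhgap4, which had 5.09 to 7.25 FPKM, so how the counting divided those reads could move its value. Of 9 relatives, partners and polysialic acid enzymes of Ncam1 and L1cam, 2 were tested, and Fgfr1 was lower in DDC than in Control. Nerve and Schwann cell markers were low: their sum was 6.71 to 10.9 FPKM in R15, 16.0 to 18.8 FPKM in DDC and 8.47 to 12.1 FPKM in Control, with Sox10 under 0.1 FPKM in every library.

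Genes whose level followed a member most closely were ranked by Pearson's r over the 11 libraries among 10144 genes. The libraries share 3 diets, so r mostly measures the likeness of group levels and is given as a description. For Vcam1 these were Malt1, Sbno2 (r = 0.990 each) and Icam1 (0.989), and 388 genes reached 0.95. Icam1 was followed by Jak2 (0.992) and Btg1 (0.990). Alcam was followed by Rbbp9 (0.994), Dpysl4 and Cds2 (0.992 each), with 762 genes at 0.95 or more. Cd44 was followed by Inava (0.990), Stom and Me1 (0.971 each), with 10 genes at 0.95 or more. Inava and Stom were also lowest in Control replicate 2, at 2.24 and 3.49 FPKM. F11r was followed by Nectin2 (0.970), Stap2 (0.968) and Myh9 (0.963), and Ncam1 by Sh3d21 (0.971) and Topors (0.954). For Cdh1 the closest was Rab13 (0.945) and for L1cam Dpagt1 (0.888), and no gene reached 0.95 with either.

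Of the markers of the labelled cell type, Spp1 was abundant as given above, and Krt19 had 237 to 345 FPKM in R15, 412 to 481 FPKM in DDC and 292 to 667 FPKM in Control. Of 15 cholangiocyte markers, all tested, 7 rose and 4 fell in DDC against Control (33.5% and 31.9% of tested genes). In R15 against DDC 3 were higher and 7 lower (33.4% and 28.8%), and in R15 against Control 2 were higher and 2 lower (6.87% and 2.72%). Hepatocyte transcripts were present as well, with a summed level of 10 markers of 1779 to 2437 FPKM in R15, 1054 to 1583 FPKM in DDC and 2922 to 3603 FPKM in Control. Most markers of T cells, stellate cells and fibroblasts were too low to test (1 of 10 and 3 of 12 were tested), although Rgs5 raised the stellate and fibroblast sum to 163 to 223 FPKM in R15 and 420 to 507 FPKM in DDC, against 31.6 to 61.3 FPKM in Control. Pancreatic acinar transcripts made up 0.106% to 0.952% of reads in Control replicates 1, 2 and 3, DDC replicate 1 and R15 replicate 3, and at most 0.0012% in the others. Without those 5 libraries Vcam1 differed by 3.13 between DDC and Control and by 1.47 between R15 and Control, where the adjusted p was 0.2 with 1 Control library left. Library totals recovered from the FPKM values were 49339240 to 72929107 reads, and 1 FPKM stood for a median of 122.5 reads.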

How the data were processed

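Polyadenylated RNA of EpCAM-selected cells was sequenced in 11 libraries. The authors deposited a merged table of FPKM per gene, with build mm10 per the submitters' processing notes; the aligner, counting tool, strand setting and annotation release are not stated in the sources used here. The 37 mitochondrial genes all stood at 0. In each library every value was a whole multiple of the smallest read-equivalent to within 0.001 (100% of values), which gave whole reads and library totals. Genes with at least 1 FPKM in at least 3 libraries (15264 of 43346) were tested on log2(FPKM + 1) with limma 3.58.1 (R 4.3.3, empirical Bayes with trend) in one fit of 3 groups, with Benjamini-Hochberg adjustment and a threshold of 0.05. A pseudocount of 1 understates differences of low genes. The procedure was tested on simulated data. Transcript counts and overlaps came from GENCODE M21, which held 42462 of the gene IDs. The members and lists were chosen with earlier results of these data known. Named genes were the members, some fixed partners, and the 3 genes with the smallest p of each list and comparison. A few genes that this rule or the ranking by likeness would name are not reported here. Alternatives were 2 other pseudocounts, other filters, scalings and fits, voom on whole reads, a replicate block, leaving out each library, and leaving out 5 libraries with pancreatic transcripts, chosen after seeing the data. Replicate numbers were not used as a block, since same-numbered libraries did not deviate together.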

Additional observations from a re-analysis of the deposited data

Results flagged for a closer look

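Of 140 groups of 4 libraries examined over 71 named genes, 9 held a library far from the other 3. Chance gives about 1 in 20 for genes named beforehand. Some of these genes, Cdh17 and Jam2 among them, were named after their values were seen, so the count cannot be set against that rate. Among the members, Cdh1 was lowest in DDC replicate 4, at 297 FPKM against 348 to 357 in the other DDC libraries. Among the partners, Itgb1 was lowest in Control replicate 1 (122 FPKM, the others 142 to 145), Vcl was lowest in Control replicate 2 (20.9 FPKM, the others 24.3 to 24.7) and Cdh2 was highest there (2.28 FPKM, the others 1.48 to 1.56). Bace1 was lowest in Control replicate 3 (19.0 FPKM, the others 21.2 to 21.5), and Adam17 was highest in Control replicate 4 (11 FPKM, the others 10.4). Has2 was at 0.00682 FPKM in Control replicate 3 and at 0 in the other Control libraries, where any value above 0 would be flagged. Jam2 was lowest in DDC replicate 2 (1.04 FPKM, the others 2.40 to 2.54), and Cdh17 was highest in Control replicate 3 (8.95 FPKM, the others 0.0232 to 0.153).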

How the results depend on the processing

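The 8 members gave 531 values under the alternatives, of which 505 kept their direction and their side of the threshold, 18 lost a call, 1 gained a call and 7 changed sign, all 7 in differences that were not called. Some alternatives could change a call but not the difference itself. These were other filters, the robust fit, the fit of only the groups compared, and leaving out a library outside the comparison. The 505 thus include values whose direction was fixed in advance. The sign changes were for L1cam in DDC against Control (leaving out single libraries gave -0.09 to 0.08, with 0.08 without Control replicate 3 and 0.00 without DDC replicate 1; 0.10 without the 5 libraries with pancreatic transcripts) and in R15 against Control (0.05 without those 5), for Alcam in R15 against Control (0.02 under quantile normalization and -0.10 to 0.03 with single libraries left out) and for Cdh1 in R15 against Control (0.01 under quantile normalization). For R15 against DDC, F11r lost its call on rescaling to one total (-0.12), under quantile normalization (-0.03) and without the 5 libraries (-0.22), and Cdh1 gained one under quantile normalization (0.40). Without the 5 libraries, which left 1 Control library assumed to vary like the other groups, DDC against Control lost F11r (0.34) and Cdh1 (-0.30), and R15 against Control lost Vcam1 (1.47) and Icam1 (0.89), with 0 members and 13 genes called. A fit of R15 and Control alone called 317 genes and 1 member, where the fit of 3 groups called 1463 and 3; Icam1 (0.68) and Ncam1 (0.69) lost their calls. Ncam1 in R15 against Control also lost its call with no filter (0.69), under quantile normalization (0.60) and in 5 of the fits without a single library (range 0.63 to 0.75); it was not tested without an R15 library, with a minimum of 5 FPKM or with median-of-ratios scaling. Leaving out single libraries moved the genes called in R15 against Control to 660 to 2184 and the members called to 2 to 3. Same-numbered libraries correlated at -0.28 to 0.30 in their deviations from the group means, and differently numbered ones at -0.54 to 0.60. The numbers thus showed no pairing, but so few libraries cannot exclude one or a shared batch. With a replicate block R15 against Control called 693 genes and 1 member. Icam1 was at 0.64 and Ncam1 at 0.70, neither of them past the threshold, and no other call of a member changed. Rescaling to one total moved the median of all genes in R15 against DDC by 0.10. The cause of these changes was not tested. Ncam1 and L1cam rested on the fewest reads of the members, 237 to 1292 and 442 to 971 per library. The other members had at least 1777 reads in every library, and counting error was not estimated.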
